A study of Mus musculus with 6 samples.

Results

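The genes examined here code for 9 proteins of the podocyte slit diaphragm and foot process: Nphs1, Cd2ap and Trpc6 at the slit diaphragm, the scaffold genes Magi2 and Tjp1, the actin genes Synpo and Actn4, and Podxl and Ptpro of the apical foot process membrane. They were chosen by name for their function, out of 21887 protein-coding genes of the RefSeq gene table for mm10 (GRCm38.p6), and all 9 were found in it. For each gene, the peaks that overlapped its span or the 5 kb on either side were taken from the deposited peak lists of 4 libraries, 110 peaks in all. The libraries came from chromatin isolation by RNA purification (ChIRP-seq), in which biotinylated oligonucleotides pull a chosen RNA, here the long noncoding RNA Tug1, out of a nuclear extract together with the chromatin crosslinked to it. The 48 probes along Tug1 formed an even and an odd set without a common probe. Both sets were run 2 times, giving the pulldowns called even replicates 1 and 2 and odd replicates 1 and 2. All libraries shared one untreated source, mouse kidney podocytes immortalised with a temperature-sensitive SV40 T antigen, at passages 10 to 12, grown at 33 degrees and moved to 37 degrees for 10 days to differentiate, with glutaraldehyde crosslinking of nuclei. Such a line is an immortalised culture model; its podocyte label could not be checked against marker expression, since the lists hold no expression values, and the labels leave unsaid whether the replicates were grown apart, so spread between them may be technical. The 2 input libraries (1% of the chromatin) entered only as the background of the authors' peak calling, and no pulldown with control probes was analysed here.

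Podocyte foot processes interdigitate around the glomerular capillary, and the gap between neighbouring processes is bridged by the slit diaphragm, a cell junction made of adhesion proteins of the nephrin and Neph families. Adaptors and scaffolds tie these proteins to the actin cytoskeleton of the foot process, and the apical membrane above the junction carries a negatively charged coat. Mutation of several of these genes causes nephrotic syndrome or glomerulosclerosis in humans. The question addressed was whether the Tug1 pulldowns recovered chromatin at these genes.

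The lists held 40725 peaks in even replicate 1, 26529 in even replicate 2, 28047 in odd replicate 1 and 34968 in odd replicate 2. Read depth is unknown for all 4. A gene without a peak was therefore below what peak calling detected in that library, which is not the same as unoccupied. Each peak carries a score from the authors' peak caller, of unstated scale, which was used only to rank peaks within a list. In the replicate 1 lists the score hardly ranks: 78.6% of peaks in even replicate 1 and 99.9% in odd replicate 1 share the value 3100. A peak at 3100 scored above 19.5% of its list in even replicate 1, with 98.1% at or below it, and above 0.0749% in odd replicate 1. In the replicate 2 lists scores were spread out, with medians of 265 (even) and 221 (odd). Between the probe sets, 2 against 2 libraries allow no exact two-sided permutation p below 0.333, so no test was made.

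The 9 genes held 36 peaks of even replicate 1, 22 of even replicate 2, 19 of odd replicate 1 and 33 of odd replicate 2, with 100 peaks inside a gene span and 10 in the 5 kb beyond. The libraries numbered 1, called against the same input, had 17 more even than odd peaks at the 9 genes, and for those numbered 2 the difference (even minus odd) was -11, so its sign changed with the replicate, as it did between the whole lists. By gene, Cd2ap had more even peaks and Tjp1 more odd peaks in both replicates, Magi2 and Synpo changed sign, and the other 5 genes had equal counts in at least 1 replicate. Magi2, Tjp1, Actn4 and Ptpro had peaks in every library, as had 13.5% of all protein-coding genes. Nphs1, Cd2ap, Synpo and Podxl lacked a peak in 1 library each, and Trpc6 lacked one in both replicate 1 libraries. Even replicate 1 had peaks at 7 of the 9 genes (48.9% of all protein-coding genes had one), even replicate 2 at 8 (35.5%), odd replicate 1 at 7 (40.0%) and odd replicate 2 at 8 (42.7%). Length bears on this, since the median span of the 9 genes was 127821 bp and that of all protein-coding genes 17169 bp. Magi2 alone supplied 49.1% of the peaks and 61.8% of the summed gene length.

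**Figure D1:**
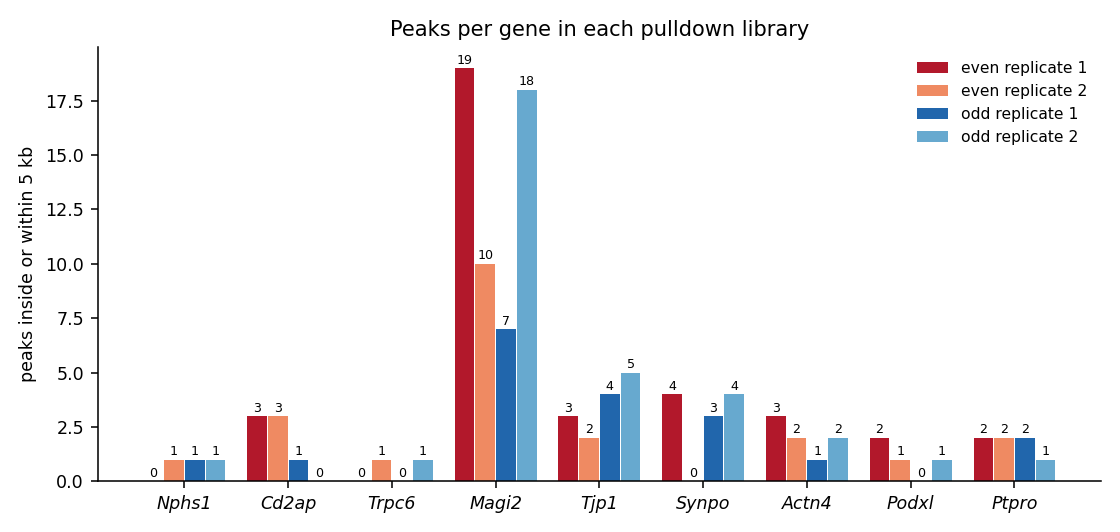
Number of peaks inside or within 5 kb of each gene (vertical axis) in each of the 4 pulldown libraries (coloured bars, 1 library each, the count printed above). Magi2 ranges from 7 to 19 and every other gene from 0 to 5, and the order of the libraries differs from gene to gene.

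Peaks of different libraries that overlapped by at least 1 bp were merged into regions, which shows whether probe sets and replicates recovered the same place. Of the 98 regions at the 9 genes, 88 (89.8%) held peaks of 1 library, 8 of 2 and 2 of 3, and none held all 4. Over all 113114 regions of the genome, 88.6% were of 1 library, 8.72% of 2, 2.06% of 3 and 0.661% of 4. A region joining at least 1 even and 1 odd library was found at 3 of the 9 genes (33.3%), namely Magi2 with 2, Synpo with 2 and Tjp1 with 1, against 16.0% of all protein-coding genes. Among the 200 genes nearest in length to each of the 9, an average of 37.3% had such a region, so the share at the 9 genes was near that of genes of like length. All 5 of these regions contained a peak of even replicate 1, and without that library none of the 9 genes had one (5.37% of all protein-coding genes did). Regions of both even libraries were found at Magi2, Tjp1 and Podxl (3 of 9, against 10.8% of all protein-coding genes) and regions of both odd libraries at Magi2, Tjp1 and Synpo (3 of 9, against 8.06%). Among genes of like length the average shares were higher than over all genes, 27.1% for both even libraries and 20.6% for both odd libraries. Even replicate 1 took part in 9 of the 10 regions with more than 1 library, even replicate 2 in 4, odd replicate 1 in 4 and odd replicate 2 in 5. Even replicate 1 was also the longest list, with 40725 peaks. Over all protein-coding genes, too, the share with a region of both probe sets fell without it, from 16.0% to 5.37%. How often each library took part in such regions over the whole genome was not calculated.

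**Figure D2:**
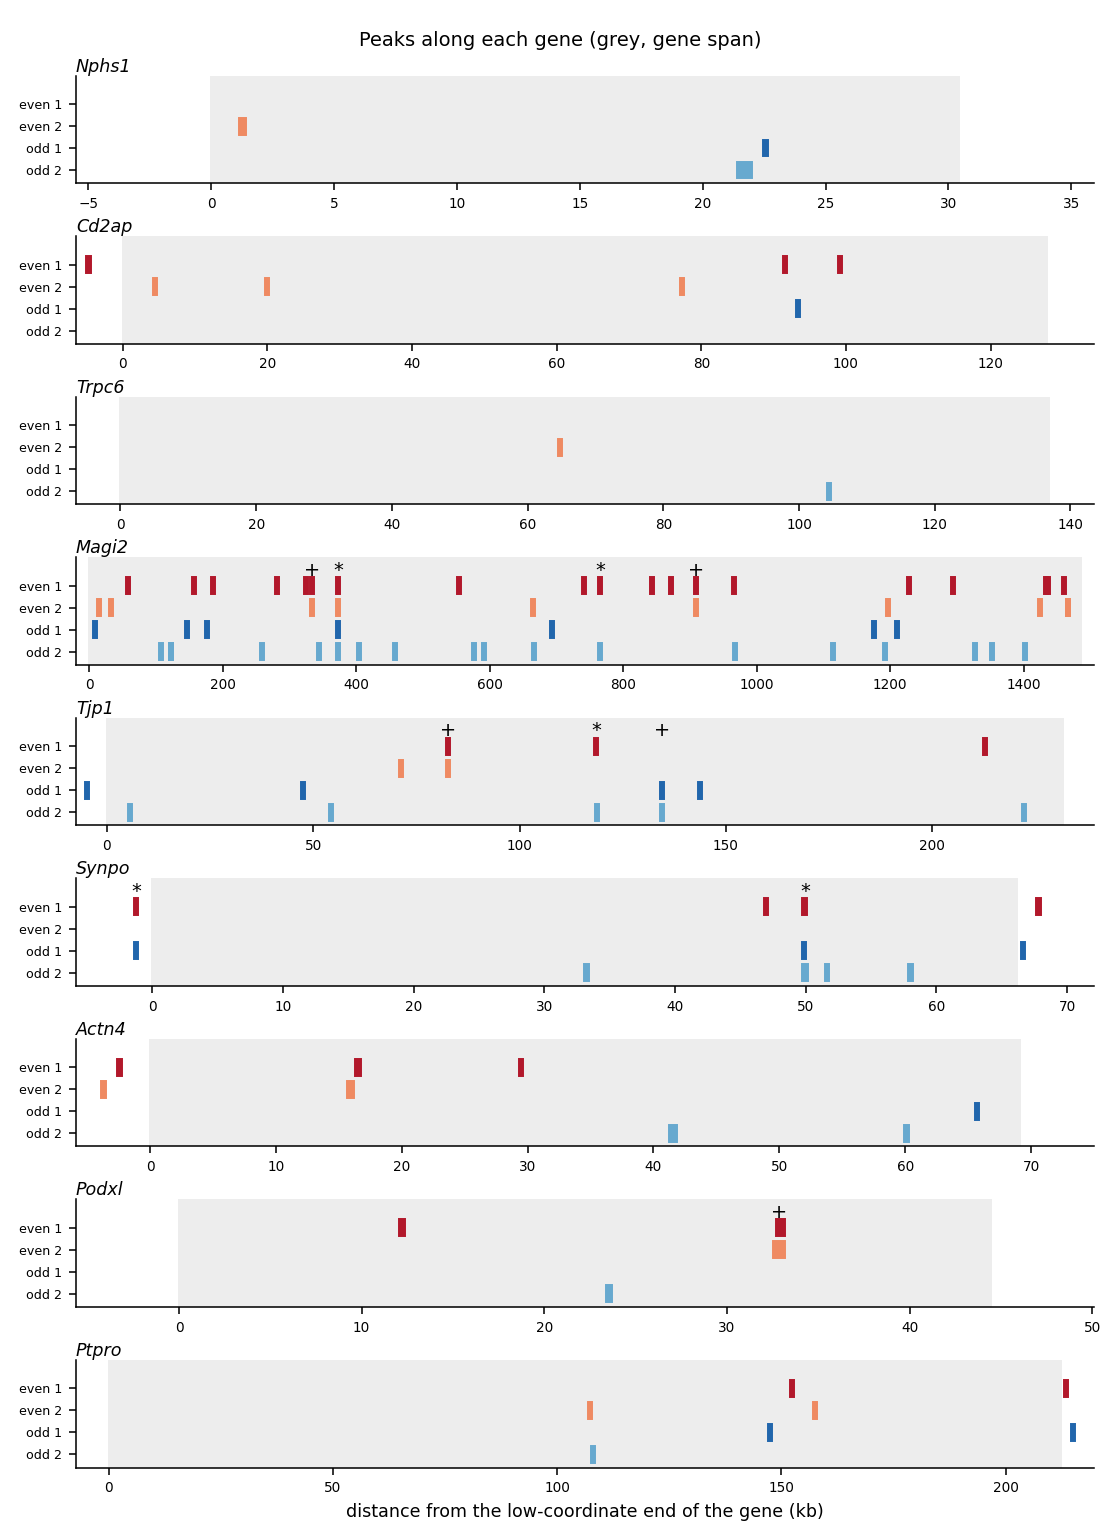
Peaks along each gene by library (rows), as distance in kb from the low-coordinate end of the gene span (grey); short peaks are drawn at a minimum visible width. An asterisk marks a region with at least 1 even and 1 odd library (2 at Magi2, 1 at Tjp1, 2 at Synpo) and a plus sign a region of 2 libraries of 1 probe set (2 at Magi2, 2 at Tjp1, 1 at Podxl).

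Nphs1 codes for nephrin, the adhesion protein that forms the backbone of the slit diaphragm. It covers 30417 bp of chromosome 7, from 30458207 to 30488623 (gene ID 54631), and it is transcribed from the plus strand. It had 0 peaks in even replicate 1 and 1 in each of the other libraries, at 3 separate places. The peak of even replicate 2, at 30459356 to 30459612, ended 446 bp before the start site that the RefSeq promoter table lists for Nphs1 (30460058). This peak scored 434, above 81.4% of its list. It began 1.15 kb inside the annotated span, since the listed start lies further inside that span. The peaks of odd replicate 1 (30480652 to 30480859) and odd replicate 2 (30479610 to 30480196) lay 20594 and 19552 bp past that start, with 455 bp between them and no overlap. The latter scored 62.5, above only 0.741% of its list. The 3 peaks compare with a median of 2 (quartiles 1 and 4) at genes of like length. Kirrel2, which codes for the nephrin relative Neph3, lies 691 bp away, and the even replicate 2 peak at the Nphs1 start is also the only peak of that library within 5 kb of Kirrel2.

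The RefSeq promoter window of Nphs1, 250 bases before to 50 after the listed start (chr7:30459808-30460107 of GRCm38.p6, plus strand), is shown because it begins 195 bp beyond that peak. Its sequence follows, with capitals on GGGA or TCCC.
Nphs1: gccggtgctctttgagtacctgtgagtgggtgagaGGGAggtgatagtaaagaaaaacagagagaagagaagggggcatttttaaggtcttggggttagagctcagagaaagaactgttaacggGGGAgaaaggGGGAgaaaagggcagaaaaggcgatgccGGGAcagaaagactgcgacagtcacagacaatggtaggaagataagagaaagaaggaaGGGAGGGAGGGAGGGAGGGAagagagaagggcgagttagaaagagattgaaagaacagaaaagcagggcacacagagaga
GGGA and its reverse complement TCCC, searched on the plus strand with overlapping matches counted, occurred 9 times in it, all as GGGA. The same or a higher number was found in 4.62% of the 32851 promoter windows in the table. The Trpc6 window also held 9 of GGGA or TCCC, and its nearest peak was 49841 bp away. The remaining windows of these genes held from 1 (Tjp1) to 6 (second Magi2 start). In the Nphs1 window other features were counted too. Its longest stretch of purines alone was 46 bases, a length reached by a run of purines or of pyrimidines in 0.307% of windows, where the median was 11. It held 6 CG pairs against a median of 7. The match is a description of the letters next to the peak and the peak did not overlap the window.

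Cd2ap codes for an adaptor that binds nephrin and links it to actin. On chromosome 17 it reaches from 42748887 to 42876707, 127821 bp (gene ID 12488), and it is transcribed from the minus strand. Both even libraries had 3 peaks there, odd replicate 1 had 1 and odd replicate 2 had 0, so the even counts (mean 3 ± 0, SD, n = 2) lay above the odd ones (0.5 ± 0.707). No peaks of different libraries overlapped. The closest pair within the gene and its 5 kb windows, even replicate 1 at 42840186 to 42840699 and odd replicate 1 at 42842174 to 42842427, were 1474 bp apart. The replicate 2 scores were 291, 185 and 196, above 56.5%, 22.1% and 25.7% of the list of even replicate 2. One even replicate 1 peak, 4415 bp beyond the low-coordinate end, had the low score of 1650 for that list, above 0.916% of it, and lay 1088 bp from an even replicate 2 peak outside the window. With 7 peaks in all, Cd2ap stood at the median of genes of like length (7, quartiles 5 and 9).

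Trpc6 codes for a calcium-permeable cation channel found at the slit diaphragm. Its annotated span, 8543867 to 8680752 of chromosome 9 (gene ID 22068), is 136886 bp long, and it is transcribed from the plus strand. It had 0 peaks in both replicate 1 libraries and 1 in each replicate 2 library. The peak of even replicate 2 (8608539 to 8608745) scored 433, above 81.2% of its list, and that of odd replicate 2 (8648084 to 8648556) scored 306, above 71.0%. The pair lay 39338 bp apart, and the second also lay in the lncRNA gene Gm32014. Trpc6 held fewer peaks for its length than the other 8 genes, 1.36 per 100 kb. Genes of like length had a median of 7.5 (quartiles 5 and 10), and 94.5% of them had more than 2. A gene of this length without any peak of the replicate 1 libraries was found in 2.50% of cases. The share with fewer peaks stayed between 0 and 6% in every setting run.

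Magi2 codes for a membrane-associated scaffold with PDZ domains that binds nephrin. It covers 1485406 bp of chromosome 5, from 19219387 to 20704792 (gene ID 50791), and it is transcribed from the plus strand. It had 19 peaks in even replicate 1, 10 in even replicate 2, 7 in odd replicate 1 and 18 in odd replicate 2. The even (14.5 ± 6.36, SD, n = 2) and odd (12.5 ± 7.78) counts overlapped, and the spread within a probe set exceeded the difference between sets. The sum of 54 exceeded that of 87.5% of the 200 genes nearest in length, whose median was 33. Those genes were 535835 to 2390387 bp long, and per 100 kb Magi2 held 3.61 peaks against a median of 4.02, with 38.5% of them lower. Magi2 was above the median by count and below it by density. Its 2 regions with both probe sets equal the median of 2 at these genes, of which 85.5% had at least 1.

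The region of Magi2 with most libraries lay at 19592152 to 19592727, 373 kb from the low-coordinate end. Peaks were present there in even replicate 1 (score 3100), odd replicate 1 (score 3100) and odd replicate 2 (score 746, above 97.4% of its list), with 242 bp in common. A peak of even replicate 2 (19591333 to 19591834, score 204, above 28.9% of its list) lay 317 bp outside it. When peaks with gaps of up to 500 bp were joined, this place held all 4 libraries, the only one of its kind at the 9 genes, and 1.76% of protein-coding genes had one by that rule, against 1.60% by overlap. Among the 200 genes nearest in length to Magi2 the share was 12.5% by either rule. A region in 3 or more libraries was found at 50% of the genes of like length. The other region with both probe sets, 19984977 to 19985302, held even replicate 1 (3100) and odd replicate 2 (574, above 94.5% of its list). Regions of both even libraries lay at 19552215 to 19552822, with 325 in even replicate 2, and 20129046 to 20129478, with 769. That score of 769 was above 97.2% of its list and the highest of even replicate 2 at any of the 9 genes.

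At the first of its 2 listed start sites (19227046), Magi2 had a single-library peak, of odd replicate 1 at 19227100 to 19227303, which began 54 bp past this start. The first start lies inside the annotated span, and the peak began 7.71 kb from the low-coordinate end of the span. At the second start (19907518) the nearest peak was 5291 bp away. The promoter window of the first start (chr5:19226796-19227095 of GRCm38.p6, plus strand, from RefSeq) ends 4 bp before that peak and is printed for this reason. Capitals mark the CG pairs.
Magi2: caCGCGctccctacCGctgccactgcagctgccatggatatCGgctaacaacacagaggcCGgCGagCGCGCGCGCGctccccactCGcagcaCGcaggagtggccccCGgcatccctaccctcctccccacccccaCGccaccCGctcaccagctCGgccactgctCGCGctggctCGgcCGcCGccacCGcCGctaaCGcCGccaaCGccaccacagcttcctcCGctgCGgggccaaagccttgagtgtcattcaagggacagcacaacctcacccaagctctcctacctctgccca
It held 29 CG pairs and had a GC content of 69.3%. As many or more CG pairs were found in 12.9% of promoter windows. For 7 of the 9 genes the table lists a start, 8 in all, and the other 6 windows held from 4 to 41 CG pairs. Of the 8 starts, 2 had a peak within 1 kb, those of Nphs1 and the first of Magi2, each from 1 library, where 13.8% of the 32851 listed starts had a peak of any library. By library the background share was 5.58% for even replicate 1, 3.03% for even replicate 2, 4.02% for odd replicate 1 and 4.46% for odd replicate 2. Synpo and Podxl were not matched.

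**Figure D3:**
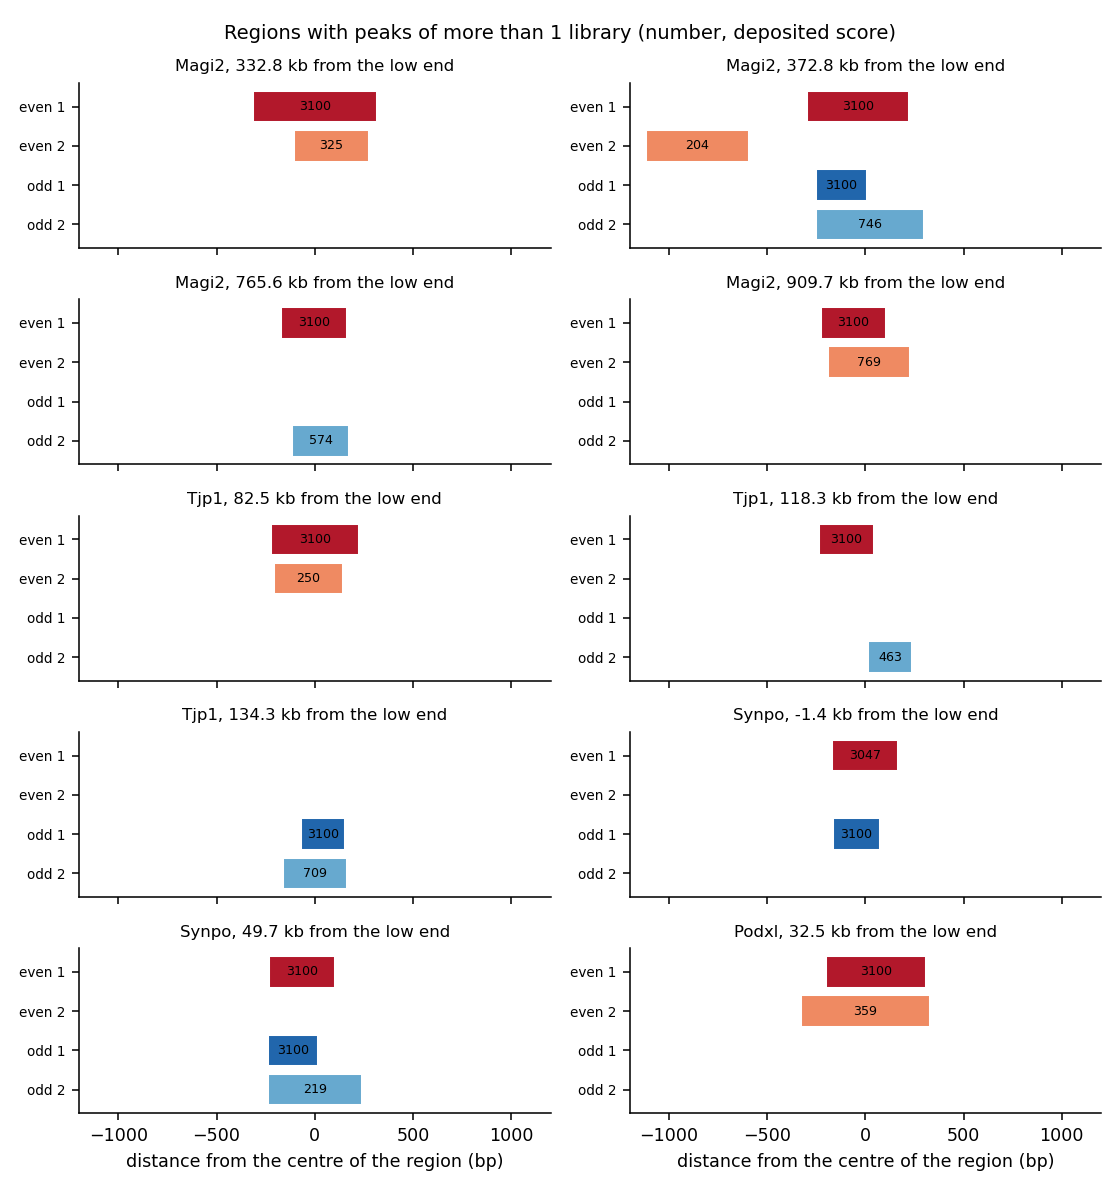
Peaks of each library (rows) around the centre of the 10 regions with peaks of more than 1 library (horizontal axis, bp), with the deposited score printed on each bar. Peaks of the same region share 202 to 489 bp, except at Tjp1 118.3 kb from the low end, where 10 bp are shared; the even replicate 2 peak beside the Magi2 region at 372.8 kb does not touch it.

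Tjp1 codes for ZO-1, a scaffold of cell junctions that is found on the cytoplasmic face of the slit diaphragm. On chromosome 7 it reaches from 65296165 to 65527850, 231686 bp (gene ID 21872), and it is transcribed from the minus strand. Even replicates 1 and 2 had 3 and 2 peaks, and odd replicates 1 and 2 had 4 and 5, so the odd counts (4.5 ± 0.707, SD, n = 2) lay above the even ones (2.5 ± 0.707). The sum of 14 was close to the median of 12 (quartiles 8 and 15.3) at genes of like length. Each pairing of libraries here used a different place. Both even libraries met at 65378628 to 65379051 (3100 and 250), with the nearest odd peak 27976 bp away. Both odd libraries met at 65430445 to 65430752, where odd replicate 2 scored 709, above 97.0% of its list, and the nearest even peak was 15688 bp away. The one region with both probe sets, 65414495 to 65414948, joined even replicate 1 (3100) and odd replicate 2 (463, above 89.6% of its list) through 10 bp of overlap. It was lost at a reciprocal overlap of 50%. A region with both probe sets was found at 50% of genes of like length. The peak nearest to the listed start (65371244), of even replicate 2, lay 3528 bp past it in the direction of transcription. This listed start lies inside the annotated span, whose upstream end is at 65527850. The regions of both even libraries, of both probe sets and of both odd libraries lay 7384, 43251 and 59201 bp before it.

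Synpo codes for synaptopodin, an actin-associated protein of differentiated foot processes. Its annotated span, 60593981 to 60660173 of chromosome 18 (gene ID 104027), is 66193 bp long. It had 4 peaks in even replicate 1, 0 in even replicate 2, 3 in odd replicate 1 and 4 in odd replicate 2. The sum of 11 exceeded that of 94.5% of genes of like length, whose median was 5 (quartiles 3 and 7), and the density of 14.4 per 100 kb was the highest of the 9 genes. The 500 kb on each side held 5.9 peaks per 100 kb. Of the 11 peaks, 7 lay inside the gene, and by the gene span alone 83.0% of genes of like length had fewer. Without even replicate 1 or without odd replicate 2 the sum was 7.

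The Synpo region with most libraries, at 60643717 to 60644177, lay 49.7 kb from the low-coordinate end. Peaks of even replicate 1 (3100), odd replicate 1 (3100) and odd replicate 2 (219) had 227 bp in common, and their 3 low-coordinate edges fell at 60643725, 60643717 and 60643721. The score in odd replicate 2 was above 48.8% of its list, and the nearest peak of even replicate 2 was 45674 bp away. A region of 3 or more libraries was found at 2 of the 9 genes, Synpo and Magi2, at 6.88% of all protein-coding genes and at 13.5% of those of like length to Synpo. A further region, 60592575 to 60592890, lay 1091 bp beyond the low-coordinate end, between Synpo and Myoz3, and joined even replicate 1 (3047) and odd replicate 1 (3100). Having 2 or more regions with both probe sets was found in 2.50% of genes of like length.

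Actn4 codes for alpha-actinin-4, which crosslinks actin filaments in foot processes. It covers 69104 bp of chromosome 7, from 28893248 to 28962351 (gene ID 60595), and it is transcribed from the minus strand. It had 3 peaks in even replicate 1, 2 in even replicate 2, 1 in odd replicate 1 and 2 in odd replicate 2. The sum of 8 exceeded 83.5% of genes of like length (median 4, quartiles 3 and 6.25), and no peaks of different libraries overlapped. The closest pair lay 116 bp apart, even replicate 2 at 28908892 to 28909430 and even replicate 1 at 28909547 to 28910047. The 4 replicate 2 scores, from 161 to 203, were all below the median of their lists. By contrast, the even replicate 1 peak at 28922561 to 28922858 scored 3118, above 98.3% of its list. Limited to peaks at or above the median score of their list, the sum was 4, and 58.0% of genes of like length had fewer. This limit left out all 4 replicate 2 peaks and none of the 4 replicate 1 peaks, since the median of the replicate 1 lists is the shared value of 3100. Both even peaks beyond the low-coordinate end lay in the neighbouring gene Capn12. By the gene span alone the sum was 6, and 71.5% of genes of like length had fewer.

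Podxl codes for podocalyxin, a sialic acid-rich protein that gives the apical membrane its negative charge. On chromosome 6 it reaches from 31519493 to 31563937, 44445 bp (gene ID 27205). It had 2 peaks in even replicate 1, 1 in even replicate 2, 0 in odd replicate 1 and 1 in odd replicate 2. The even libraries met at 31552031 to 31552667, where their peaks had 489 bp in common and even replicate 2 scored 359, above 70.4% of its list. The odd replicate 2 peak (31542845 to 31543219, score 163) lay 8811 bp from that region. The sum of 4 compares with a median of 3 (quartiles 2 and 4) at genes of like length, of which 10.5% had a region of both even libraries and 23.0% one of both probe sets.

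Ptpro codes for a receptor-type tyrosine phosphatase, also called GLEPP1, of the apical foot process membrane. Its annotated span, 137252299 to 137464634 of chromosome 6 (gene ID 19277), is 212336 bp long, and it is transcribed from the plus strand. It had 2 peaks in each of even replicate 1, even replicate 2 and odd replicate 1, and 1 in odd replicate 2. The sum of 7 was below the median of 11 (quartiles 8 and 15) at genes of like length, of which 77.5% had more. No peaks overlapped between libraries. Even replicate 2 (137359504 to 137359728, score 545, above 90.7% of its list) and odd replicate 2 (137359888 to 137360454, score 134, above 15.3%) were 159 bp apart, and joining peaks over gaps of up to 500 bp added Ptpro to the genes with both probe sets, 4 in all. By that rule 18.2% of all protein-coding genes had such a region. Among genes of like length to Ptpro, 51.0% had one by overlap alone. All peaks lay at least 107205 bp from the listed start at the low-coordinate end, and 2 lay beyond the other end of the gene.

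**Figure D4:**
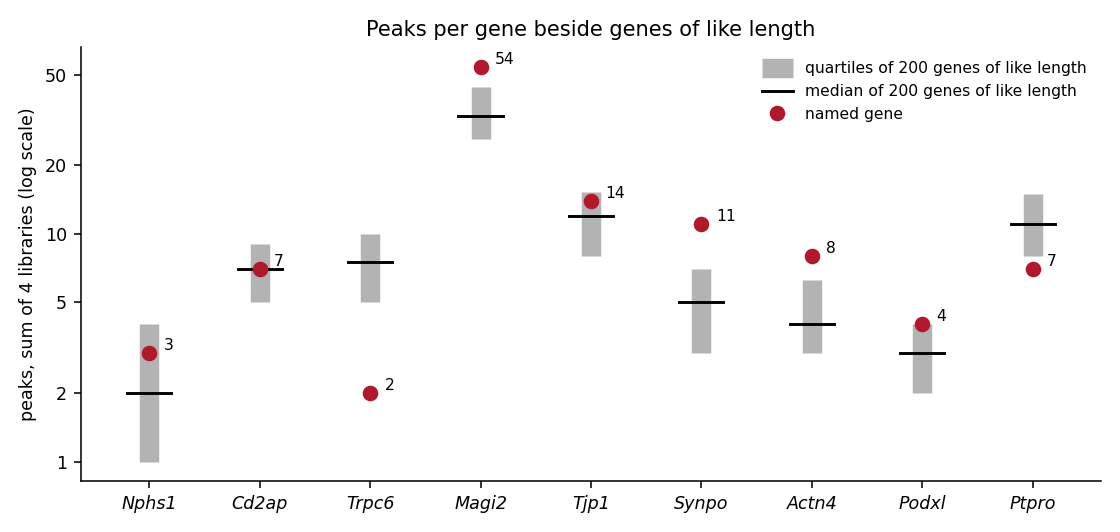
Peaks per gene summed over the 4 libraries (red points, log axis) beside the median (black line) and quartiles (grey bar) of the 200 protein-coding genes nearest in length. Trpc6 (2) and Ptpro (7) lie below the quartiles, Magi2 (54), Synpo (11) and Actn4 (8) above them, and the other 4 genes on or within them. Counts are not divided by length, and per 100 kb Magi2 lay below the median of its 200 genes.

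Against genes of like length, 6 of the 9 genes had more peaks than the median, Cd2ap equalled it, and Trpc6 and Ptpro had fewer. Magi2 is among the 6 by count only, since per 100 kb it lay below the median (3.61 against 4.02). Nphs1 (3 against 2) and Podxl (4 against 3) were only slightly above it. Against their own flanks of 500 kb on each side, 6 genes held more peaks per 100 kb and 3 held fewer, namely Trpc6 (1.36 against 3.6), Magi2 (3.61 against 4.4) and Ptpro (3.15 against 6.1). The 6 genes above their flanks were Nphs1 (7.42 against 6.5), Cd2ap (5.08 against 3.6), Tjp1 (5.79 against 5.5), Synpo, Actn4 (10.1 against 7.8) and Podxl (7.35 against 4.9). Nphs1 held 3 peaks and Tjp1 14, so differences in density this small do not separate these genes from their flanks. The share of all protein-coding genes above their flanks was not calculated. The chromosomes of these genes, 5, 6, 7, 9, 17 and 18, held from 0.940 to 1.12 times the peak density of the median autosome. By peak counts over the 4 libraries, the genes of like length most similar to the 3 with both probe sets were Sgcz for Magi2 (a summed difference of 8 peaks), then Ptprt and Nav2, tied at 10. For Tjp1 they were Nek11 and Filip1l, tied at 2, and for Synpo Adam9 at 1, then Syk and Mark2, tied at 2.

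Scores could be ranked throughout in the replicate 2 lists only. In even replicate 1, 30 of the 36 peaks at the 9 genes shared the value 3100 and 5 scored lower. The 1 peak that scored higher, at Actn4 (3118), was above 98.3% of that list. All 19 peaks of odd replicate 1 scored 3100. Of the 55 replicate 2 peaks at the 9 genes, 32 scored above the median of their list. Magi2 held 28 of the 55, with 21 above the median. At the other genes the numbers above it were 2 of 2 (Trpc6), 2 of 3 (Ptpro), 1 of 2 (Nphs1) and 1 of 2 (Podxl). Lower shares were found at Tjp1 (3 of 7), Cd2ap (1 of 3), Synpo (1 of 4) and Actn4 (0 of 4). The even replicate 2 peaks had a median of 309 and ranged from 172 to 769, and those of odd replicate 2 had a median of 250 and ranged from 62.5 to 746. Peaks in the top 10% of their list numbered 4 in each replicate 2 list, at Magi2 and Ptpro in even replicate 2 and at Magi2 and Tjp1 in odd replicate 2. The 5 odd replicate 2 peaks in regions of more than 1 library had a median of 574 (219 to 746) and the other 28 a median of 232 (62.5 to 592). For even replicate 2 the 4 such peaks had a median of 342 (250 to 769) and the other 18 one of 297 (172 to 556). The ranges overlapped in both lists.

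**Figure D5:**
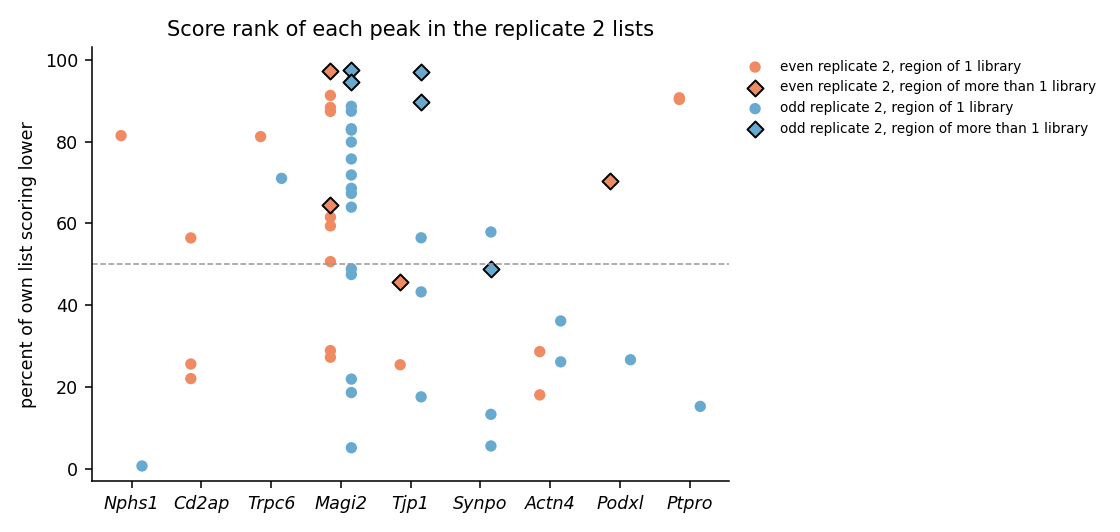
Percent of peaks in the same list that score lower (vertical axis) for each replicate 2 peak at the 9 genes; diamonds mark peaks in a region of more than 1 library and the dashed line the middle of the list. Magi2 spans nearly the whole range, from 5.19% to 97.4%, and all 4 replicate 2 peaks at Actn4 lie below the line.

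Peaks of different libraries also lay side by side without overlap. Within 500 bp of a peak of another library but not overlapping one were 9 of the 110 peaks (8.18%), at Nphs1, Magi2, Actn4 and Ptpro, against 3.37% of all peaks in the genome. Both peaks of a pair were counted, so the 9 peaks stand for fewer places. There was 1 pair each at Nphs1 (455 bp, both odd), Actn4 (116 bp, both even), Magi2 (175 bp) and Ptpro (159 bp), the last 2 even with odd. The remaining Magi2 peak lay 317 bp from a region of 3 libraries. Overlap itself was found for 20% of the peaks at the 9 genes and 23.1% of all peaks. Per library, the share in a region of more than 1 library was 25% against 25.8% of the whole list in even replicate 1, 18.2% against 24.1% in even replicate 2, 21.1% against 22.1% in odd replicate 1 and 15.2% against 20% in odd replicate 2. The shares at the 9 genes rest on few peaks, 9 of 36, 4 of 22, 4 of 19 and 5 of 33 in the same order. A region of more than 1 library counts in the share of each of its libraries, so the 4 shares are not independent.

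A longer list of 50 other slit diaphragm and foot process genes, chosen for function, was counted in the same way (48 matched by symbol, Nherf1 and Nherf2 by synonym). A region with both probe sets was found at 20 of them (40.0%), where 16.0% of all protein-coding genes and an average of 29.8% of their genes of like length had one. Without even replicate 1 the number was 5 (10.0%, against 5.37% of all protein-coding genes), and without odd replicate 1 it was 13 (26.0%, against 11.3%). These backgrounds without a library are not matched for length. The median span was 58557.5 bp in the longer list and 17169 bp over all protein-coding genes. Shares among genes of like length were not calculated for these settings. In total 28 genes had more peaks than the median of genes of like length, 6 the same number and 16 fewer, and Nherf2, Itga3 and Pdpn had no peak.

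The nephrin relatives Kirrel2 and Kirrel3 each had 1 region with both probe sets. That of Kirrel2, at 30451713 to 30452335 of chromosome 7, joined even replicate 1 (3100) and odd replicate 2 (341), overlapped the lncRNA gene Gm45979 and lay 5871 bp from Nphs1, so that a window of 10 kb counted it for Nphs1 too. Polarity and scaffold genes with such a region were Pard3, Prkci, Prkcz, Cask, Magi1, the close relative of Magi2, and Dlg1. At the cytoskeleton they were Anln, Cttn, Wasl, Dnm2, Cdc42, Myo1e, Arhgap24, Palld and Parva, and among signalling genes Nck1, Plce1 and Pik3r1. Anln, which codes for the actin-binding protein anillin, was the only one of the 50 with a region of all 4 libraries, against 1.60% of all protein-coding genes. It lay inside the gene at 22357971 to 22358453 of chromosome 9, with scores of 3100 in both replicate 1 libraries, 565 in even replicate 2 and 266 in odd replicate 2. Trpc5, a relative of Trpc6 on the X chromosome, had 6 peaks against a median of 16, and 97.0% of genes of like length had more. Fat1 and Pard3, with 20 and 47 peaks against medians of 7 and 24, lie on chromosome 8, where peaks were 1.74 times as dense as on the median autosome, and the part of this density in their counts was not tested.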

How the data were processed

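The submitters' processing notes name Bowtie2 2.1.0 and the build mm10. The authors deposited 1 peak list per pulldown, called against 1 input library without pooling, per the file names; peak names start with MACS, while the caller's version, threshold and treatment of duplicates were not given in the sources used here. As deposited, the score comes from the authors' peak caller and was used within a list only. A series-wide list equals the 4 lists joined and was not used.

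Coordinates are 1-based. Regions were formed by merging peaks that share 1 bp or more. Gene spans came from RefSeq (GRCm38.p6). Each gene's count was set beside the 200 protein-coding genes nearest in length and beside 500 kb flanks, as descriptions without a test. The 9 genes, the longer list and the naming rule (all 9 genes, longer-list genes with a region of both probe sets, and the 2 genes most alike in counts, with ties) were chosen with earlier results of these data known. Trpc5, Fat1, Nherf1, Nherf2, Itga3 and Pdpn were named after their values were seen, as were the sequence features counted in promoter windows. Counting was tested on simulated data. Software was Python 3.11.15 with pandas 2.3.3, numpy 2.4.6 and matplotlib 3.10.9.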

Additional observations from a re-analysis of the deposited data

How the results depend on the processing

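Alternative settings gave 210 values, of which 137 stayed, 1 changed sign and 72 moved, by over 1.5 times for a count or beyond the 95% Wilson interval of the share for a share. The sum of peaks at the 9 genes stayed within that factor, at 100 without a window, 105 and 118 with windows of 2 and 10 kb, and 74 to 91 with each library left out. Leaving out peaks that score under their list's median gave 82, but this setting hardly acts on the replicate 1 lists, whose median is the shared value: it left out 5 of 36 and 0 of 19 peaks there, against 8 of 22 and 15 of 33 in even and odd replicate 2. The number of the 9 genes with a region of both probe sets was 3 and ranged from 0 (without even replicate 1) to 3 with each library left out; it was 2 at a reciprocal overlap of 50%, and 4 with a window of 10 kb or with gaps of up to 500 bp joined. For the 50 other genes it was 20 and ranged from 5 (without even replicate 1) to 19 with each library left out; the cause of these drops was not tested. Joining over gaps, density per 100 kb and the settings for the 50 genes were added after seeing the data. The share of genes of like length with fewer peaks ranged from 83.0% to 100% for Synpo, from 0 to 6% for Trpc6, from 4.50% to 25% for Ptpro, from 38.5% (per 100 kb) to 100% (same chromosome) for Magi2, from 20.5% to 70.5% for Cd2ap, from 45.5% to 77.5% for Nphs1, from 49.0% to 74.0% for Tjp1, from 58.0% to 90% for Actn4 and from 40.5% to 76% for Podxl. Even minus odd peaks at the 9 genes averaged 3; with the replicate number as a replicate block (added after seeing the data) the difference was 17 in replicate 1 and -11 in replicate 2, with no test. Read depth is unknown, so a missing peak does not show a missing signal.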
